A study of Mus musculus with 12 samples.

Results

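The 35 genes described here encode enzymes of the tricarboxylic acid (TCA) cycle and of mitochondrial fatty acid oxidation. They were taken by name from the gene count matrix, which holds 24453 genes, and not by a cutoff on their values. Earlier results of these data were known when they were chosen. Of the 35 genes, 17 belong to the TCA arm, namely 12 enzymes or subunits of the cycle and 5 linked dehydrogenases and malic enzymes, and 18 belong to the fatty acid oxidation (FAO) arm. All 35 genes passed the filter on low counts, which kept 14026 genes.

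RNA was measured by ribosome-depleted, strand-specific RNA sequencing in 4 lines of mouse embryonic fibroblasts (MEFs), with 3 libraries from separate cultures of each line. TM6 is the parental line, immortalised with the SV40 large T antigen, of C57BL6/J strain and homozygous for a floxed *Pnpt1* allele (labelled *Pnpt1* neo-flox/neo-flox) that still makes PNPase, the mitochondrial exoribonuclease polynucleotide phosphorylase. The rho0 line was made from TM6 by growth in 750 ng/mL ditercalinium for 3 weeks, which removes mitochondrial DNA (mtDNA), and keeps the intact floxed gene, whereas PKO-1 and PKO-6 were made from TM6 with an adenovirus carrying Cre recombinase, which excised exon 2 of *Pnpt1*. Per the study's methods all 4 lines, controls included, grew with 50 µg/mL uridine, each derived line was grown from 1 colony of a single cell, and the PKO lines have no detectable mtDNA either. The lines therefore share the floxed background, the immortalisation and the medium, the 3 derived lines share the absence of mtDNA, and the PKO lines alone lack PNPase. Because each derived line is 1 clone, p-values describe the spread between cultures of a clone and not between clones.

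The TCA cycle condenses acetyl-CoA with oxaloacetate and oxidises the product back to oxaloacetate through isocitrate, 2-oxoglutarate, succinyl-CoA, succinate, fumarate and malate, passing electrons to the respiratory chain. Long-chain fatty acids enter mitochondria as carnitine esters and are shortened by repeated turns of dehydrogenation, hydration, dehydrogenation and thiolysis, which release acetyl-CoA for the cycle. Both pathways reduce NAD and flavin carriers that the respiratory chain reoxidises, and cells without mtDNA have no working chain. All enzymes of both pathways are encoded in the nucleus, so their transcripts can be followed in cells without mtDNA.

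Depth was 47164832 to 67991336 estimated counts per library, of which the ribosomal precursor *Rn45s* took 12.2% to 19.6%. *Pnpt1*, given as a check of the labels although its counts cover the whole gene and not exon 2 alone, had a mean of 3131 ± 262 normalized counts in TM6 (SD, n = 3, as for all means below), 5271 ± 229.7 in rho0, 1240.1 ± 44.3 in PKO-1 and 1944 ± 249.8 in PKO-6, and was called lower in both PKO lines and higher in rho0, with edgeR log2 fold changes of -1.34 (SE 0.086, adjusted p = 1.2e-08) in PKO-1, -0.69 (SE 0.084, adjusted p = 5.5e-06) in PKO-6 and 0.75 (SE 0.083, adjusted p = 2.1e-06) in rho0. The fibroblast label was checked against 13 markers, whose summed level was 370790.0 to 683600.0 normalized counts per library, with *Thy1* at or near 0 in every line and *Lum* likewise in all but PKO-1. Collagen and fibronectin genes carried most of this sum and went opposite ways, with means of 182210.0 ± 16623 in TM6, 61619 ± 8687 in rho0, 98095 ± 5599 in PKO-1 and 38369 ± 7203 in PKO-6 for *Col1a1* and 113270.0 ± 4456 in TM6, 237870.0 ± 1951 in rho0, 259110.0 ± 16263 in PKO-1 and 208420.0 ± 1704 in PKO-6 for *Fn1*. *Col3a1* and *S100a4* were lower in rho0 and PKO-6 than in TM6 and PKO-1, with means of 4765 ± 477 in TM6, 476 ± 52.3 in rho0, 7011 ± 768 in PKO-1 and 329 ± 71.3 in PKO-6 for *Col3a1* and 23368 ± 1206 in TM6, 6178 ± 619 in rho0, 28584 ± 849 in PKO-1 and 7942 ± 837 in PKO-6 for *S100a4*, and their part in the results below, where rho0 and PKO-6 often lie together, was not tested. Summed markers of adipocytes, which use many of the same genes, reached at most 78.3 normalized counts, with *Plin1* at 0 in all 12 libraries, and those of blood, endothelial and muscle cells at most 201, 177 and 55.9. Epithelial markers summed to 1640.2 to 3262, of which *Krt19* held the largest share in each line. In bulk RNA, fewer cells of a kind and less RNA per cell cannot be told apart.

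A gene was called when the edgeR quasi-likelihood test gave an adjusted p below 0.01 and the absolute log2 fold change was above 0.5. In rho0, 13 of the 35 genes were called lower than in TM6 (37.1%, beside 21.4% of all genes tested) and 3 higher (8.57%, beside 20.7%). PKO-6 was close to rho0 in these numbers, with 12 genes lower (34.3%, beside 19.4%) and 3 higher (8.57%, beside 21.9%). PKO-1 had 4 genes lower (11.4%, beside 17.9%) and 4 higher (11.4%, beside 16.4%). The 3 comparisons use the same TM6 libraries, so their values are set side by side and are not independent of each other.

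Calls were spread over both arms in rho0 and PKO-6, and were fewest in the FAO arm of PKO-1. In rho0, 7 TCA and 6 FAO genes were called lower, and the median log2 fold change was -0.33 over the TCA arm and -0.27 over the FAO arm, beside 0.018 over all genes tested. In PKO-6, 7 TCA and 5 FAO genes were called lower, with medians of -0.46 and -0.21 beside 0.014. In PKO-1, 3 TCA genes and 1 FAO gene were called lower and as many were called higher, with medians of 0.023 and -0.04. Within the TCA arm, the 12 genes of the cycle had medians of -0.26 in rho0, 0.028 in PKO-1 and -0.20 in PKO-6. For the 5 linked genes, the medians were -0.65 in rho0, -0.27 in PKO-1 and -0.59 in PKO-6. In PKO-6 the median of the cycle genes was thus close to that of the FAO arm. The median absolute log2 fold change of the FAO arm in PKO-1 was 0.13, beside 0.31 for the TCA arm and 0.39 for all genes tested. Of the 35 genes, 16 were called in no comparison with TM6, namely 6 in the TCA arm and 10 in the FAO arm.

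**Figure D1:**
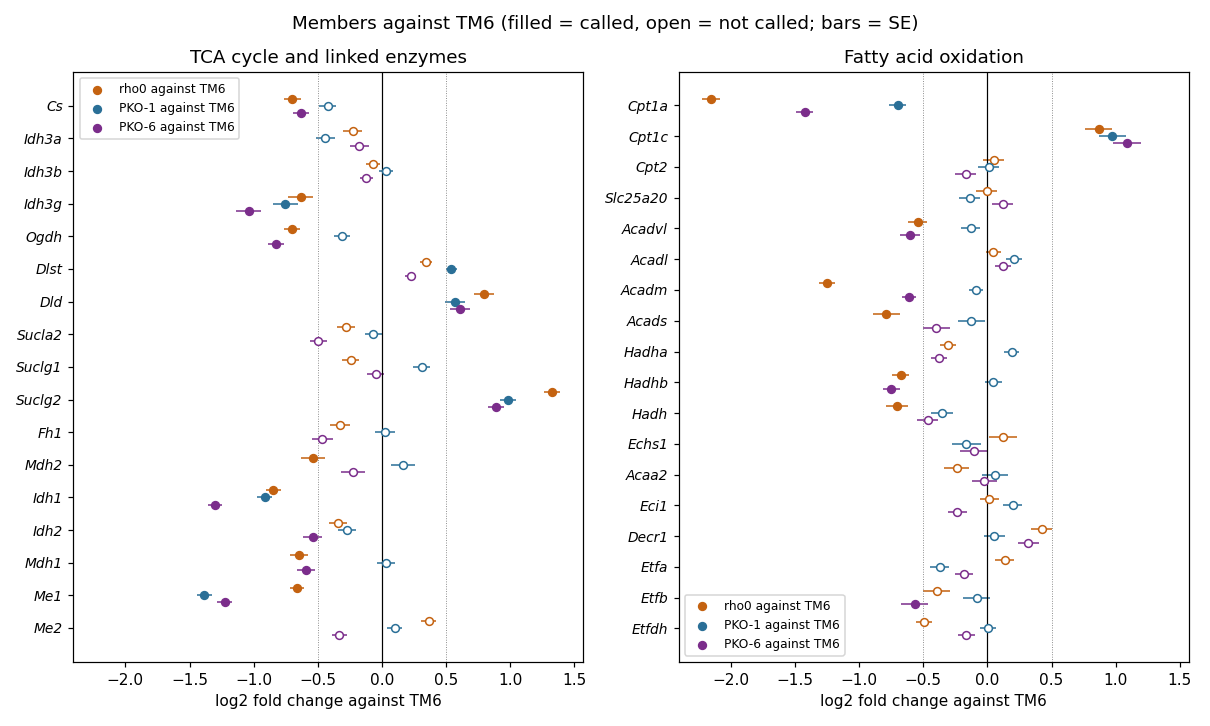
Log2 fold change of each of the 35 genes against TM6 (horizontal axis) in rho0, PKO-1 and PKO-6, with the standard error as bars and dotted lines at -0.5 and 0.5; filled points were called and open points were not. Left of 0 lie 24 points of rho0, 17 of PKO-1 and 28 of PKO-6, and *Dld*, *Suclg2* and *Cpt1c* lie right of 0.5 in every line. The PKO-1 points of the FAO arm lie between -0.5 and 0.5 except for *Cpt1a* and *Cpt1c*.

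*Cs* (chr10:128337832-128362479, plus strand, mm10) encodes citrate synthase, which opens the cycle. *Cs* had normalized counts of 27116, 28794 and 27626 in TM6, 18621, 16207 and 16671 in rho0, 20820.0, 21453 and 20036 in PKO-1 and 17804, 19097 and 17075 in PKO-6. Against TM6, *Cs* had log2 fold changes of -0.70 (SE 0.065, adjusted p = 3.6e-07) in rho0, -0.42 (SE 0.064, adjusted p = 5.6e-05) in PKO-1 and -0.63 (SE 0.064, adjusted p = 9.4e-07) in PKO-6, of which that in PKO-1 stayed inside the fold change threshold. All 9 libraries of the derived lines lay below all TM6 libraries, and rho0 and PKO-6 overlapped. The NAD-dependent isocitrate dehydrogenase has 3 kinds of subunit, the catalytic one encoded by *Idh3a* and the others by *Idh3b* and *Idh3g*. *Idh3g* (chrX:73778963-73786897, minus strand) had normalized counts of 3363, 3187 and 3057 in TM6, 2357, 1916 and 1918 in rho0, 1820.1, 1970.3 and 1904 in PKO-1 and 1614, 1745 and 1324 in PKO-6. Against TM6, *Idh3g* had log2 fold changes of -0.63 (SE 0.097, adjusted p = 4.8e-05) in rho0, -0.75 (SE 0.097, adjusted p = 1.2e-05) in PKO-1 and -1.04 (SE 0.098, adjusted p = 4.0e-07) in PKO-6. TM6 did not overlap with any other line, and rho0 overlapped with PKO-1. *Idh3g* lies on chromosome X, whose tested genes had median log2 fold changes of -0.75, -0.74 and -0.87 in rho0, PKO-1 and PKO-6. With the chromosome medians taken off, its log2 fold changes were 0.12, -0.015 and -0.17 and no call was left. *Idh3a* and *Idh3b* were not called in any line, with log2 fold changes of -0.23 in rho0, -0.44 in PKO-1 and -0.18 in PKO-6 for *Idh3a* and of -0.068 in rho0, 0.033 in PKO-1 and -0.12 in PKO-6 for *Idh3b*.

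The 2-oxoglutarate dehydrogenase complex has 3 components, whose transcripts did not all change in the same direction. *Ogdh* (chr11:6291597-6359094, plus strand) encodes the first component, which decarboxylates 2-oxoglutarate. It had normalized counts of 11868, 11952 and 11532 in TM6, 7615, 7048 and 7067 in rho0, 9068, 10089 and 9340.0 in PKO-1 and 6769, 6997 and 6158 in PKO-6. Against TM6, *Ogdh* had log2 fold changes of -0.70 (SE 0.06, adjusted p = 1.7e-07) in rho0, -0.31 (SE 0.06, adjusted p = 4.3e-04) in PKO-1 and -0.83 (SE 0.06, adjusted p = 2.7e-08) in PKO-6. The lines did not overlap, in the order TM6, PKO-1, rho0 and PKO-6. *Dld* (chr12:31331562-31351471, minus strand) encodes the dihydrolipoamide dehydrogenase that this complex shares with the pyruvate and branched-chain complexes. *Dld* had normalized counts of 4879, 5657 and 5944 in TM6, 9742, 9177 and 9649 in rho0, 8664, 8208 and 7517 in PKO-1 and 8273, 7820.5 and 8988 in PKO-6. Against TM6, *Dld* had log2 fold changes of 0.79 (SE 0.078, adjusted p = 6.7e-07) in rho0, 0.57 (SE 0.078, adjusted p = 2.3e-05) in PKO-1 and 0.61 (SE 0.078, adjusted p = 9.2e-06) in PKO-6, and all derived libraries lay above TM6. *Dlst* (chr12:85110833-85134091, plus strand), which encodes the succinyltransferase core, was called higher in PKO-1 and in no other line, with log2 fold changes of 0.34 (SE 0.045, adjusted p = 1.1e-05) in rho0, 0.54 (SE 0.045, adjusted p = 1.6e-07) in PKO-1 and 0.22 (SE 0.045, adjusted p = 5.0e-04) in PKO-6. *Dld* and *Dlst* both lie on chromosome 12, whose tested genes had median log2 fold changes of 0.55 in rho0, 0.56 in PKO-1 and 0.53 in PKO-6. With these medians taken off, *Dld* was at 0.24, 0.008 and 0.073 and *Dlst* in PKO-1 at -0.016, and none of these calls was left. Without TM6 replicate 1, *Dld* was at 0.46 in PKO-1 and 0.49 in PKO-6 and *Dlst* at 0.49 in PKO-1, inside the fold change threshold.

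Of the 3 genes for succinyl-CoA synthetase subunits, 1 was called. *Suclg2* (chr6:95473009-95718846, minus strand) encodes the GTP-forming beta subunit. It had normalized counts of 3864, 4296 and 4064 in TM6, 11011, 9649.9 and 9992 in rho0, 8263, 8288 and 7602 in PKO-1 and 7569.6, 7656 and 7408 in PKO-6. Against TM6, *Suclg2* had log2 fold changes of 1.33 (SE 0.062, adjusted p = 3.3e-10) in rho0, 0.98 (SE 0.061, adjusted p = 8.8e-09) in PKO-1 and 0.89 (SE 0.061, adjusted p = 1.5e-08) in PKO-6, the highest of the TCA arm in each of the 3 lines. TM6 lay below every derived library, and rho0 lay above both PKO lines, which overlapped with each other. *Sucla2*, which encodes the ATP-forming beta subunit, was not called, with log2 fold changes of -0.28 in rho0, -0.069 in PKO-1 and -0.50 in PKO-6, and neither was the shared alpha subunit *Suclg1*, with -0.24 in rho0, 0.31 in PKO-1 and -0.05 in PKO-6. For *Sucla2*, the value of PKO-6 lay at the threshold, and 14 of 25 alternatives called it lower, 6 of them with a library left out. On a scale that allows for gene length (TPM, in which the levels of all transcripts of a library add up to the same total), *Suclg2* was below *Sucla2* in TM6 and above it in the derived lines. The ratio of *Suclg2* to *Sucla2* TPM was 0.595 ± 0.026 in TM6, 1.81 ± 0.029 in rho0, 1.23 ± 0.036 in PKO-1 and 1.55 ± 0.077 in PKO-6, and no library of a derived line overlapped with TM6.

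*Fh1*, the fumarase, was not called, with log2 fold changes of -0.33 in rho0, 0.023 in PKO-1 and -0.46 in PKO-6. *Mdh2*, the mitochondrial malate dehydrogenase and the gene with the highest TPM of all 35 in each line, was called lower in rho0, with log2 fold changes of -0.54 (SE 0.095, adjusted p = 1.7e-04) in rho0, 0.16 (SE 0.094, adjusted p = 0.15) in PKO-1 and -0.22 (SE 0.094, adjusted p = 0.048) in PKO-6. Its cytosolic counterpart *Mdh1* (chr11:21556692-21571934, minus strand), which serves the malate-aspartate shuttle, had normalized counts of 4988, 5122 and 4884 in TM6, 3527, 3027 and 3010.5 in rho0, 5252, 5238 and 4845 in PKO-1 and 3303, 3576 and 3083 in PKO-6. Against TM6, *Mdh1* had log2 fold changes of -0.65 (SE 0.07, adjusted p = 1.7e-06) in rho0, 0.032 (SE 0.069, adjusted p = 0.7) in PKO-1 and -0.59 (SE 0.07, adjusted p = 4.0e-06) in PKO-6. TM6 and PKO-1 overlapped, as did rho0 and PKO-6, and the former were above the latter without overlap.

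*Idh1* and *Me1*, the cytosolic enzymes that make NADPH from isocitrate and malate, were lower in every derived line. *Idh1* (chr1:65158616-65186479, minus strand) had normalized counts of 2984, 3139 and 3086 in TM6, 1815, 1661 and 1646 in rho0, 1704, 1537 and 1644 in PKO-1 and 1261, 1284 and 1193 in PKO-6. Against TM6, *Idh1* had log2 fold changes of -0.85 (SE 0.056, adjusted p = 1.2e-08) in rho0, -0.91 (SE 0.056, adjusted p = 7.6e-09) in PKO-1 and -1.30 (SE 0.057, adjusted p = 1.4e-10) in PKO-6. All derived libraries lay below TM6 and PKO-6 lay lowest, while rho0 and PKO-1 overlapped. *Me1* (chr9:86581363-86695914, minus strand) had normalized counts of 11061, 12250.0 and 12420.0 in TM6, 7860.3, 7137 and 7548 in rho0, 4726, 4555 and 4412 in PKO-1 and 5071, 5089.6 and 5103 in PKO-6. Against TM6, *Me1* had log2 fold changes of -0.66 (SE 0.056, adjusted p = 1.3e-07) in rho0, -1.38 (SE 0.057, adjusted p = 1.2e-10) in PKO-1 and -1.23 (SE 0.056, adjusted p = 2.4e-10) in PKO-6, and in PKO-1 its log2 fold change was the lowest of both arms. The 4 lines did not overlap for *Me1*, in the order TM6, rho0, PKO-6 and PKO-1. The mitochondrial counterparts had smaller log2 fold changes. *Idh2* was called lower in PKO-6 alone, with log2 fold changes of -0.34 (SE 0.072, adjusted p = 8.0e-04) in rho0, -0.27 (SE 0.072, adjusted p = 0.0047) in PKO-1 and -0.54 (SE 0.073, adjusted p = 1.4e-05) in PKO-6, and *Me2*, on chromosome 18, was not called against TM6, with 0.37 in rho0, 0.10 in PKO-1 and -0.33 in PKO-6. Over chromosome 18 the median was 0.42, 0.42 and 0.34 in the 3 lines, and with these medians taken off *Me2* was at -0.059 in rho0, -0.32 in PKO-1 and -0.67 in PKO-6, so that its sign turned in rho0 and PKO-1 and it was called lower in PKO-6. In TPM, *Me1* exceeded *Me2* in TM6, and the ratio of *Me1* to *Me2* was 1.80 ± 0.09 in TM6, 0.885 ± 0.015 in rho0, 0.646 ± 0.0065 in PKO-1 and 0.974 ± 0.051 in PKO-6.

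*Idh1* has 2 transcripts in the files, of 2263 and 2285 bases, and their levels did not move alike. The longer one held 5.58% ± 0.850 of the *Idh1* TPM in TM6, 14.7% ± 1.60 in rho0, 13.9% ± 0.870 in PKO-1 and 18.3% ± 6.16 in PKO-6, and each derived library was above each TM6 library. Its mean TPM was 2.50, 3.59, 3.16 and 3.18 in TM6, rho0, PKO-1 and PKO-6, whereas that of the shorter transcript was 42.2, 20.8, 19.5 and 14.2. The fall of *Idh1* was thus carried by the shorter transcript. The 2 transcripts share most of their sequence, so that the split rests on the authors' read assignment.

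**Figure D2:**
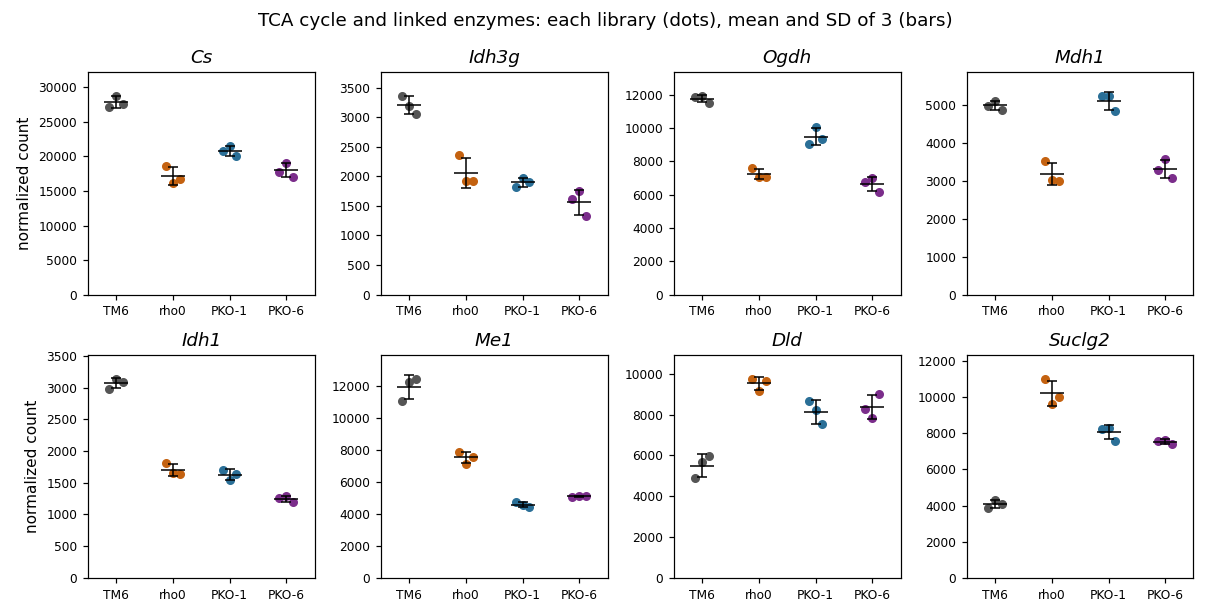
Normalized counts (vertical axis, from 0) of 8 genes of the TCA arm in each library of TM6, rho0, PKO-1 and PKO-6; dots are libraries and bars the mean and SD of 3. *Ogdh* and *Mdh1* in PKO-6 sit near rho0, *Idh1* and *Me1* lie below TM6 in all derived lines, and *Dld* and *Suclg2* lie above it.

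In the carnitine shuttle, which opens the FAO arm, *Cpt1a* was called lower and *Cpt1c* higher in every derived line. *Cpt1a* (chr19:3323301-3385733, plus strand) encodes the liver-type carnitine palmitoyltransferase of the outer mitochondrial membrane, which sets the rate of entry of long-chain fatty acids. *Cpt1a* had normalized counts of 2837, 3022 and 2826 in TM6, 682, 639 and 626 in rho0, 1805, 1779.7 and 1763 in PKO-1 and 980.2, 1188 and 1071 in PKO-6. Against TM6, *Cpt1a* had log2 fold changes of -2.16 (SE 0.069, adjusted p = 8.9e-12) in rho0, -0.70 (SE 0.065, adjusted p = 4.6e-07) in PKO-1 and -1.42 (SE 0.066, adjusted p = 2.6e-10) in PKO-6. The 4 lines did not overlap, in the order TM6, PKO-1, PKO-6 and rho0. *Cpt1c* (chr7:44959372-44974851, minus strand) encodes a related protein of the endoplasmic reticulum, known mainly from brain, with little transferase activity. *Cpt1c* had normalized counts of 1065, 773 and 815 in TM6, 1631, 1549 and 1664 in rho0, 1618, 1672 and 1925 in PKO-1 and 2036, 1786 and 1823 in PKO-6. Against TM6, *Cpt1c* had log2 fold changes of 0.87 (SE 0.11, adjusted p = 6.3e-06) in rho0, 0.97 (SE 0.11, adjusted p = 2.6e-06) in PKO-1 and 1.09 (SE 0.11, adjusted p = 6.0e-07) in PKO-6, and TM6 lay below every derived library. The ratio of *Cpt1a* to *Cpt1c* TPM was 2.12 ± 0.4 in TM6, 0.255 ± 0.015 in rho0, 0.654 ± 0.065 in PKO-1 and 0.366 ± 0.059 in PKO-6, so that *Cpt1a* was the more abundant in TM6 and *Cpt1c* in the derived lines. The inner-membrane partners of the shuttle, *Cpt2* and the carnitine-acylcarnitine carrier *Slc25a20*, were not called, with log2 fold changes of 0.048 in rho0, 0.0098 in PKO-1 and -0.17 in PKO-6 for *Cpt2* and of -0.0059 in rho0, -0.14 in PKO-1 and 0.12 in PKO-6 for *Slc25a20*.

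The 250 bases before the start sites of *Cpt1a*, *Cpt1c* and *Suclg2* are shown because these genes had the largest fall and the largest rises of both arms in rho0. They are RefSeq promoters of GRCm38.p6, read 5′ to 3′ on the strand of the gene, with each CCAAT box, or its reverse complement ATTGG, in capitals. The *Cpt1a* stretch is chr19:3323051-3323300 (plus), that of *Cpt1c* chr7:44974852-44975101 (minus) and that of *Suclg2* chr6:95718847-95719096 (minus).
Cpt1a: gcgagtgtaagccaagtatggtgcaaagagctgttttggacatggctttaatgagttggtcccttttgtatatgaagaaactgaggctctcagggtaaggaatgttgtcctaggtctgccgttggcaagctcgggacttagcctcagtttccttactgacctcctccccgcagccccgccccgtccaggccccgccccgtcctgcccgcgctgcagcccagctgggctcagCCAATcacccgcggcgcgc
Cpt1c: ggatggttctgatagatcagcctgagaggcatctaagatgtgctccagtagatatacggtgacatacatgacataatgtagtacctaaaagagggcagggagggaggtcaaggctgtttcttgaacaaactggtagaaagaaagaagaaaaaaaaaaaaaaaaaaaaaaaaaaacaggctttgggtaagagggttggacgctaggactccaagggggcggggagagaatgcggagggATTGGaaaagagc
Suclg2: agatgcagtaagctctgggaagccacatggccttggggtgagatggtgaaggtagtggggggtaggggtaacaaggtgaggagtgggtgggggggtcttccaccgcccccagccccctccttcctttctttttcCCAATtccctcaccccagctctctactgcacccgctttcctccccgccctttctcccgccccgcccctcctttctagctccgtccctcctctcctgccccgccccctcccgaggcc
The box begins 19 bases before the start of *Cpt1a*, 13 before that of *Cpt1c* and 116 before that of *Suclg2*. The stretches hold 59.6%, 44.0% and 64.4% G and C.

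Windows of 300 bases (250 before to 50 after the start) were at hand for 31 of the 35 genes. Read on both strands, CCAAT was in 9 of 15 TCA windows (60.0%) and 6 of 16 FAO windows (37.5%), beside 37.4% of all 32851 windows. The letters TCAAGGTCA, the core to which estrogen-related receptors bind, were in none of the 31 windows, beside 0.423% of all, and CACGTG, an E-box, was in none either, beside 7.15% of all. These counts describe the letters in these windows only.

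The 4 acyl-CoA dehydrogenases open each turn of β-oxidation on very long, long, medium and short chains. *Acadvl* (chr11:70010183-70015428, minus strand) acts on very long chains at the inner membrane. It had normalized counts of 3533, 3517 and 3451 in TM6, 2679, 2262 and 2253 in rho0, 3186, 3279 and 3126 in PKO-1 and 2352, 2502 and 2059 in PKO-6. Against TM6, *Acadvl* had log2 fold changes of -0.54 (SE 0.076, adjusted p = 1.9e-05) in rho0, -0.13 (SE 0.075, adjusted p = 0.14) in PKO-1 and -0.60 (SE 0.075, adjusted p = 6.9e-06) in PKO-6, and rho0 and PKO-6 overlapped below PKO-1, which lay below TM6. *Acadm* (chr3:153922353-153944643, minus strand) encodes the medium-chain enzyme. *Acadm* had normalized counts of 2033, 2104 and 2046 in TM6, 925, 811 and 861 in rho0, 1967, 1956 and 1885 in PKO-1 and 1360.1, 1412 and 1275 in PKO-6. Against TM6, *Acadm* had log2 fold changes of -1.25 (SE 0.059, adjusted p = 3.8e-10) in rho0, -0.09 (SE 0.057, adjusted p = 0.18) in PKO-1 and -0.61 (SE 0.057, adjusted p = 3.7e-07) in PKO-6. The lines did not overlap, in the order TM6, PKO-1, PKO-6 and rho0, as for *Cpt1a*. *Acads*, the short-chain enzyme, was called lower in rho0, with log2 fold changes of -0.79 (SE 0.11, adjusted p = 1.5e-05) in rho0, -0.13 (SE 0.1, adjusted p = 0.31) in PKO-1 and -0.40 (SE 0.1, adjusted p = 0.0038) in PKO-6. *Acadl*, the long-chain enzyme, was not called, with log2 fold changes of 0.045 in rho0, 0.21 in PKO-1 and 0.12 in PKO-6.

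Trifunctional protein, which carries out the last 3 steps on long chains, is built from the products of *Hadha* (chr5:30118304-30154980, minus strand) and *Hadhb* (chr5:30155253-30184593, plus strand). The genes lie head to head with 272 bases between their starts. *Hadha* had normalized counts of 7568, 7648 and 7714 in TM6, 6556, 5807 and 6174 in rho0, 8857, 8953 and 8319 in PKO-1 and 5726, 6349.9 and 5589 in PKO-6. Its log2 fold changes against TM6 were -0.31 (SE 0.06, adjusted p = 4.2e-04) in rho0, 0.19 (SE 0.06, adjusted p = 0.014) in PKO-1 and -0.38 (SE 0.06, adjusted p = 7.0e-05) in PKO-6, none of which was called. *Hadhb* had normalized counts of 3244, 3454 and 3476 in TM6, 2359.5, 1973 and 2033 in rho0, 3646, 3559 and 3293 in PKO-1 and 1977, 2083 and 1996 in PKO-6. Against TM6, *Hadhb* had log2 fold changes of -0.68 (SE 0.067, adjusted p = 7.2e-07) in rho0, 0.045 (SE 0.066, adjusted p = 0.57) in PKO-1 and -0.75 (SE 0.067, adjusted p = 2.3e-07) in PKO-6. For both genes rho0 and PKO-6 overlapped and lay below TM6 and PKO-1. The ratio of *Hadha* to *Hadhb* TPM was 1.14 ± 0.036 in TM6, 1.48 ± 0.063 in rho0, 1.26 ± 0.03 in PKO-1 and 1.48 ± 0.068 in PKO-6, and was higher in every library of the derived lines than in those of TM6. The 228 bases that lie in the promoter windows of both genes, chr5:30155003-30155230 on the plus strand of GRCm38.p6 (RefSeq), are shown because they lie between both start sites; no CCAAT box was found, so no letter is in capitals.
Hadha and Hadhb: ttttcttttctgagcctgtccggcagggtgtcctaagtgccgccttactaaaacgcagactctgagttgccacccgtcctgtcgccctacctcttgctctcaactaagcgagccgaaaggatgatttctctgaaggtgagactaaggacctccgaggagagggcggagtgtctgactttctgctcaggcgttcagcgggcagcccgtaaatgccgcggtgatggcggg

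Among the enzymes that act on shorter chains, *Hadh*, the 3-hydroxyacyl-CoA dehydrogenase, was called lower in rho0, with log2 fold changes of -0.70 (SE 0.083, adjusted p = 4.2e-06) in rho0, -0.35 (SE 0.083, adjusted p = 0.0019) in PKO-1 and -0.46 (SE 0.083, adjusted p = 1.8e-04) in PKO-6. *Echs1*, the enoyl-CoA hydratase, had 0.12 in rho0, -0.16 in PKO-1 and -0.10 in PKO-6, and *Acaa2*, a thiolase, had -0.24 in rho0, 0.059 in PKO-1 and -0.024 in PKO-6, none of them called. One end of *Hadha* overlaps over 77 bases with exon sequence of *Gareml* on the other strand, and *Idh3b* and *Me1* overlap over 5 and 30 bases with *Nop56* and *A330041J22Rik*; whether reads were counted by strand is not given in the sources used here.

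*Eci1* and *Decr1*, the isomerase and reductase that handle double bonds, were not called, with log2 fold changes of 0.014 in rho0, 0.20 in PKO-1 and -0.24 in PKO-6 for *Eci1* and of 0.42 in rho0, 0.053 in PKO-1 and 0.32 in PKO-6 for *Decr1*. Electrons from the acyl-CoA dehydrogenases pass through the flavoprotein of *Etfa* and *Etfb* to the dehydrogenase *Etfdh* and on to ubiquinone. *Etfb* was called lower in PKO-6, with log2 fold changes of -0.40 (SE 0.1, adjusted p = 0.0039) in rho0, -0.085 (SE 0.1, adjusted p = 0.49) in PKO-1 and -0.57 (SE 0.1, adjusted p = 2.5e-04) in PKO-6, but without PKO-6 replicate 3 its value there was -0.48, inside the fold change threshold. *Etfa* and *Etfdh* were not called, with 0.13 in rho0, -0.37 in PKO-1 and -0.18 in PKO-6 for *Etfa* and -0.50 in rho0, 0.0061 in PKO-1 and -0.16 in PKO-6 for *Etfdh*. The *Etfdh* value of rho0 lay at the threshold, and 11 of 25 alternatives called it lower, 4 of them with a library left out.

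With both PKO clones pooled as 1 group, so that the gap between the clones counts as spread, the PKO-6 calls of *Idh2*, *Mdh1*, *Acadvl*, *Acadm*, *Hadhb* and *Etfb* were not made, at log2 fold changes of PKO against TM6 from -0.40 for *Idh2* to -0.25 for *Mdh1* and adjusted p from 0.0051 for *Idh2* to 0.26 for *Hadhb*. In the same fit *Mdh2*, *Mdh1*, *Acadvl* and *Hadhb* missed the threshold in rho0, at adjusted p from 0.012 for *Mdh2* to 0.038 for *Hadhb*. Taking off chromosome medians, of which that of chromosome 5 in rho0 was -0.21, put *Mdh2* and *Hadhb* in rho0 inside the fold change threshold, at -0.33 and -0.46, whereas *Etfb* in rho0 and *Fh1* and *Hadh* in PKO-6 were then called lower, at -0.53, -0.67 and -0.52.

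**Figure D3:**
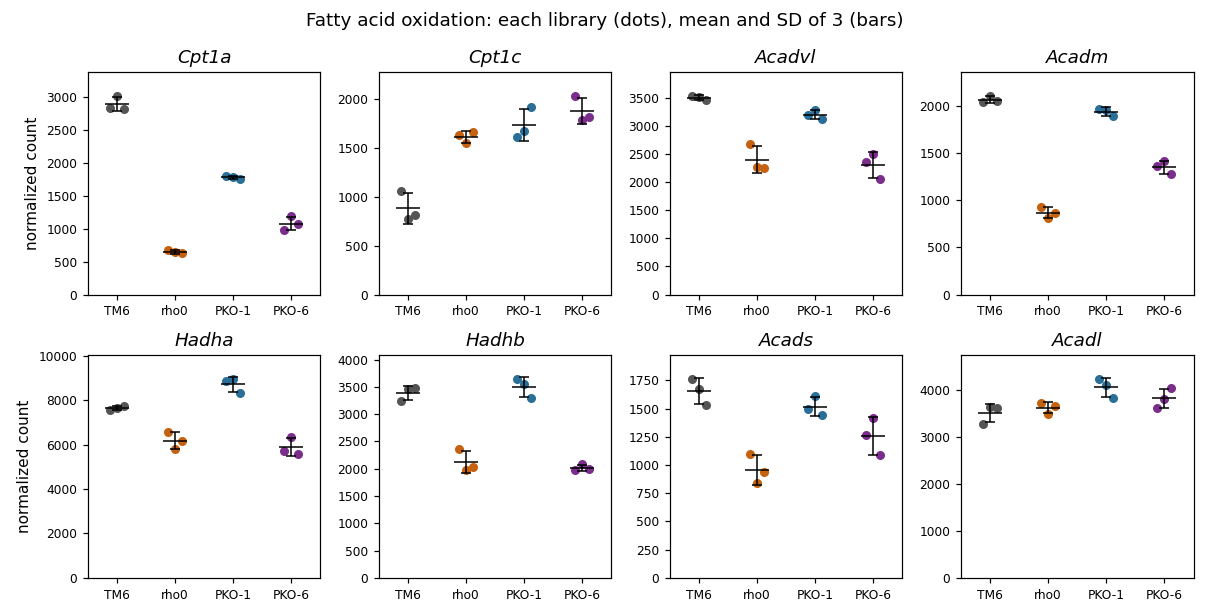
Normalized counts (vertical axis, from 0) of 8 FAO genes in each library of the 4 lines; dots are libraries and bars the mean and SD of 3. *Cpt1a* and *Acadm* step down from TM6 through PKO-1 and PKO-6 to rho0, *Cpt1c* lies above TM6 in all derived lines, and *Acadl* shows little difference.

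Per length, the TCA arm was expressed above the FAO arm in every line, and the summed TPM of both was lower in the derived lines than in TM6. The summed TPM of the 17 TCA genes was 1831, 1912 and 1899 in TM6, 1535, 1536 and 1562 in rho0, 1769, 1716 and 1731 in PKO-1 and 1404, 1454 and 1499 in PKO-6. That of the 18 FAO genes was 719.6, 727 and 721 in TM6, 598, 576 and 584 in rho0, 682, 662 and 669 in PKO-1 and 554, 573 and 587 in PKO-6. In both arms TM6 was highest, PKO-1 next, and rho0 and PKO-6 lowest, without overlap between TM6, PKO-1 and the lower lines. As a mean, the TCA sum was 82.1% of TM6 in rho0, 92.5% in PKO-1 and 77.2% in PKO-6, and the FAO sum was 81.0%, 92.9% and 79.0%. TPM is scaled otherwise than the counts of the fit. In that fit, 9 TCA genes had positive and 8 negative log2 fold changes in PKO-1 against TM6. In the FAO arm 9 were positive and 9 negative. For some genes the 2 scales differed in direction. *Idh3b* had means of 5380 normalized counts in TM6 and 5505 in PKO-1, but 122 and 119 TPM. *Hadhb* had 3391 and 3499.5 normalized counts, but 55.5 and 54.6 TPM. *Mdh2* was higher in PKO-1 on both scales. How much of the lower sums of PKO-1 comes from the scale was not tested. The ratio of the sums was 2.54, 2.63 and 2.63 in TM6, 2.57, 2.67 and 2.68 in rho0, 2.59, 2.59 and 2.59 in PKO-1 and 2.54, 2.54 and 2.56 in PKO-6. This ratio thus varied little. Against TM6, called TCA genes went in both directions, whereas in the FAO arm *Cpt1c* alone was called higher and all other called genes lower. *Mdh2* alone held 22.1% of the TCA sum in TM6, 18.1% in rho0, 25.6% in PKO-1 and 23.5% in PKO-6. For *Cs* this share was 16.9% ± 0.19 in TM6 and 12.5% ± 0.076 in rho0, 13.1% ± 0.23 in PKO-1 and 13.6% ± 0.12 in PKO-6, and each derived library lay below each TM6 library. The FAO gene with the highest mean TPM was *Etfa* in TM6, rho0 and PKO-6, and *Hadha* in PKO-1. The lowest of all 35 was *Cpt1c* in TM6, at a mean of 10.3 TPM, and *Cpt1a* in the derived lines, at 4.70 TPM in rho0, 12.5 in PKO-1 and 7.65 in PKO-6.

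**Figure D4:**
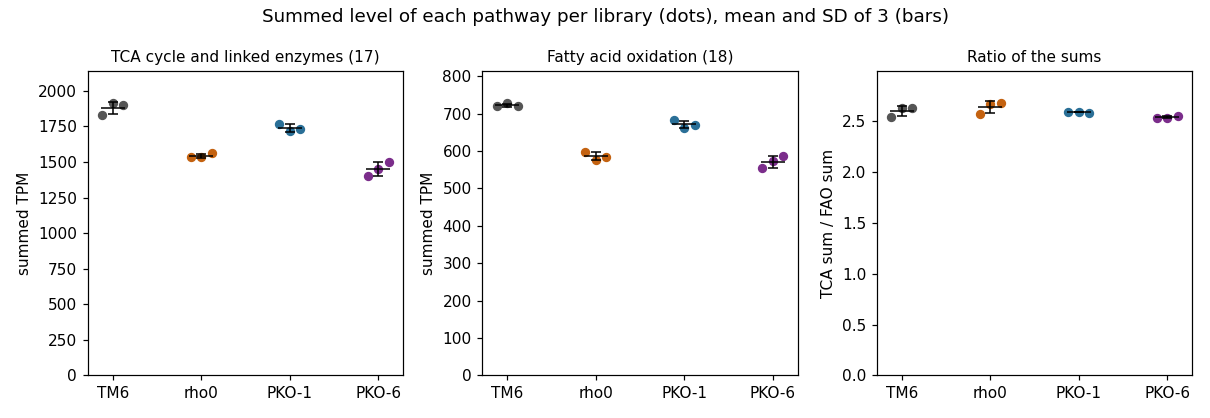
Summed TPM of the 17 TCA genes (left) and the 18 FAO genes (middle) and their ratio (right) in each library of the 4 lines, with all vertical axes from 0; dots are libraries and bars the mean and SD of 3. Both sums are lower in the derived lines, least so in PKO-1, while the ratio stays between 2.54 and 2.68.

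**Figure D5:**
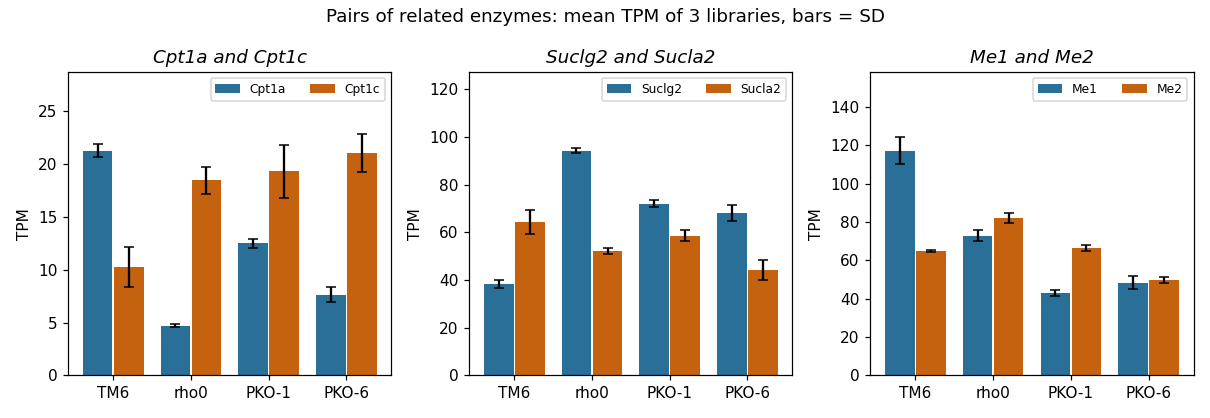
Mean TPM (vertical axis, from 0) of 3 pairs of related enzymes in each line, with bars for the SD of 3 libraries. *Cpt1c* exceeds *Cpt1a*, and *Suclg2* exceeds *Sucla2*, in the derived lines but not in TM6, and *Me1* exceeds *Me2* clearly in TM6 alone.

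The question of whether the 2 clones with the same excision resemble each other was tested directly. PKO-1 was higher than PKO-6 for 6 of the 35 genes (17.1%, beside 11.5% of all genes tested), 2 in the TCA arm and 4 in the FAO arm. None was called lower (0%, beside 17.6%) by edgeR or by DESeq2, although 2 TCA and 3 FAO genes had an unadjusted edgeR p below 0.05 in that direction. The log2 fold change of PKO-1 against PKO-6 was 0.79 (SE 0.067, adjusted p = 2.3e-07) for *Hadhb*, 0.72 (SE 0.066, adjusted p = 5.0e-07) for *Cpt1a* and 0.62 (SE 0.07, adjusted p = 3.7e-06) for *Mdh1*. It was 0.56 (SE 0.06, adjusted p = 2.3e-06) for *Hadha*, 0.52 (SE 0.057, adjusted p = 3.1e-06) for *Acadm* and 0.52 (SE 0.06, adjusted p = 5.4e-06) for *Ogdh*. For each of the 6 genes the clones did not overlap. The median log2 fold change was 0.32 over the TCA arm and 0.17 over the FAO arm, beside -0.012 over all genes tested. The calls of *Ogdh* and *Acadm* stood close to the fold change threshold: without PKO-6 replicate 3 they were at 0.47 and 0.48, and without PKO-1 replicate 2 *Ogdh* was at 0.47. With chromosome medians taken off, *Ogdh* and *Mdh1*, both on chromosome 11, were at 0.38 and 0.49, inside the threshold, whereas *Fh1* was then called higher.

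Set against rho0, the PKO clones are cells without PNPase beside cells that have it, all without mtDNA. The lines also differ in origin, with ditercalinium for rho0 and Cre adenovirus for the PKO lines, and each is 1 clone. Differences due to PNPase, to these treatments and to the clone therefore cannot be told apart. PKO-6 differed from rho0 in few of the genes, with 2 higher (5.71%, beside 13.3% of all genes tested) and 2 lower (5.71%, beside 8.16%). The higher genes were *Cpt1a*, at 0.73 (SE 0.069, adjusted p = 1.2e-06), and *Acadm*, at 0.64 (SE 0.059, adjusted p = 9.5e-07). The lower genes were the malic enzymes *Me1*, at -0.56 (SE 0.056, adjusted p = 2.0e-06), and *Me2*, at -0.70 (SE 0.058, adjusted p = 3.1e-07). PKO-1 was higher than rho0 for 8 genes (22.9%, beside 15.1%) and lower for 2 (5.71%, beside 17.6%). The higher ones were *Cpt1a*, at 1.46 (SE 0.069, adjusted p = 7.2e-10), *Acadm*, at 1.16 (SE 0.059, adjusted p = 1.5e-09), *Hadhb*, *Mdh2*, *Mdh1*, *Acads*, *Suclg1* and *Etfdh*, the last 6 at log2 fold changes from 0.50 to 0.72. The *Etfdh* value lay at the threshold, and its call was lost in 17 of 25 alternatives. With chromosome medians taken off, only 3 of the 10 calls between PKO-1 and rho0 were left, namely *Mdh1*, *Cpt1a* and *Acadm*. The lower ones were *Me1*, at -0.72 (SE 0.056, adjusted p = 1.1e-07), and *Etfa*, at -0.51 (SE 0.072, adjusted p = 3.7e-05). *Cpt1a*, *Acadm* and *Me1* were called in the same direction in both clones, which were set against the same rho0 libraries. With chromosome medians taken off, *Cpt1a* alone of these was called in both, since *Acadm* in PKO-6 was at 0.39 and *Me1* in PKO-1 at -0.28, inside the threshold.

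Lists of neighbouring genes, not members of either arm, were read in the same fit. Of all genes tested, 20.7% were called higher and 21.4% lower in rho0, 16.4% and 17.9% in PKO-1, and 21.9% and 19.4% in PKO-6. These shares stand beside the counts of every list below, and the counts were not tested against them. Of 14 genes of pyruvate entry, 5 were called lower and 1 higher in rho0, 6 and 2 in PKO-1, and 8 were called lower in PKO-6. For this list and those that follow, chromosome medians were not taken off. *Pdk4*, a kinase that shuts off pyruvate dehydrogenase, had log2 fold changes of -2.42 in rho0, -1.86 in PKO-1 and -2.10 in PKO-6, and *Pdp2*, a phosphatase that turns it on, of -1.07 in rho0, -1.06 in PKO-1 and -1.51 in PKO-6, all called. *Pdk1* was called higher in rho0 and PKO-1 (0.63 and 0.64, against 0.066 in PKO-6), and *Pdk2* in PKO-1 (0.56). Of the 6 remaining genes of the cycle, *Aco1*, the cytosolic aconitase, was lower in each line (-0.63 in rho0, -1.02 in PKO-1 and -1.02 in PKO-6) and *Sdhd*, a succinate dehydrogenase subunit, was called lower in rho0 and PKO-6 (-0.77 in rho0, -0.47 in PKO-1 and -0.54 in PKO-6). Subunit genes *Sdha*, *Sdhb* and *Sdhc* were not called against TM6 in any line.

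Of 12 genes of anaplerosis and the shuttles, 3 were called higher and 3 lower in rho0, 4 and 1 in PKO-1, and 4 and 5 in PKO-6. *Gpt2*, the mitochondrial alanine aminotransferase, had log2 fold changes of 2.24 (SE 0.078, adjusted p = 1.9e-11) in rho0, 1.19 (SE 0.076, adjusted p = 1.2e-08) in PKO-1 and 2.11 (SE 0.077, adjusted p = 2.3e-11) in PKO-6. *Pck2*, the mitochondrial phosphoenolpyruvate carboxykinase, had 1.74 in rho0, 0.64 in PKO-1 and 1.45 in PKO-6, and *Got1*, the cytosolic aspartate aminotransferase, 1.44 in rho0, 1.0 in PKO-1 and 1.25 in PKO-6, all called. *Acly*, which splits citrate in the cytosol, was lower in each line (-0.69 in rho0, -0.51 in PKO-1 and -1.07 in PKO-6). Carrier genes *Slc25a12* (-1.05 in rho0, -0.034 in PKO-1 and -1.13 in PKO-6) and *Slc25a10* (-1.0 in rho0, -0.15 in PKO-1 and -0.60 in PKO-6) were called lower in rho0 and PKO-6 and not in PKO-1.

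Of 15 further genes of mitochondrial fatty acid oxidation, 13 were tested, with 3 called higher and 1 lower in rho0, 4 and 4 in PKO-1, and 4 and 2 in PKO-6. *Acot2*, a mitochondrial acyl-CoA thioesterase, rose from 185 ± 15.3 normalized counts in TM6 to 7002 ± 893 in rho0, 659 ± 54.7 in PKO-1 and 4499 ± 554 in PKO-6, at log2 fold changes of 5.24 (SE 0.13, adjusted p = 8.3e-13) in rho0, 1.83 (SE 0.13, adjusted p = 2.8e-08) in PKO-1 and 4.60 (SE 0.13, adjusted p = 1.3e-12) in PKO-6. It lies on chromosome 12 in a cluster of near-identical thioesterase genes, so its counts are uncertain. *Acad10* had 1.89 in rho0, 1.72 in PKO-1 and 1.91 in PKO-6 and *Crat*, carnitine acetyltransferase, -0.93 in rho0, -0.78 in PKO-1 and -1.08 in PKO-6, all called, whereas *Eci2* was called lower in PKO-1 (-0.76) and *Hsd17b10*, on chromosome X, in both PKO lines (-0.58 and -0.55).

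Of 16 genes of fatty acid uptake and activation, 6 were called lower and 1 higher in rho0, 7 and 2 in PKO-1, and 7 and 5 in PKO-6. Acyl-CoA synthetases *Acsl3* (-0.62 in rho0, -1.08 in PKO-1 and -1.59 in PKO-6) and *Acsl4* on chromosome X (-0.79 in rho0, -1.18 in PKO-1 and -1.15 in PKO-6), fatty acid binding protein *Fabp5* (-1.51 in rho0, -0.79 in PKO-1 and -1.25 in PKO-6) and transporter *Slc27a3* (-1.13 in rho0, -1.97 in PKO-1 and -2.0 in PKO-6) were lower in each line. *Acsl6*, another synthetase, was higher in each line, from 13.8 ± 4.20 normalized counts in TM6 to 287 ± 29.0 in PKO-6, and *Slc27a1* was called higher in PKO-6 (0.68). Of 11 peroxisomal genes, 10 were tested, with 2 called in each direction in rho0 and in PKO-1, and 4 higher and 2 lower in PKO-6. *Acox2*, a branched-chain acyl-CoA oxidase, went up in rho0 and PKO-6 and down in PKO-1 (3.08 in rho0, -0.91 in PKO-1 and 3.97 in PKO-6). *Acox3* was called higher in both PKO lines (0.50 and 0.72).

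Of 13 regulators, 3 were called higher and 1 lower in rho0, 4 and 1 in PKO-1, and 5 and 4 in PKO-6. *Rxra*, the partner of the PPAR receptors, was lower in each line (-1.11 in rho0, -0.79 in PKO-1 and -0.86 in PKO-6), and *Ppargc1b*, a coactivator of oxidative genes on chromosome 18, was higher in each line (0.62 in rho0, 0.91 in PKO-1 and 1.87 in PKO-6). *Esrra*, the estrogen-related receptor alpha, was called higher in PKO-6 (0.31 in rho0, 0.27 in PKO-1 and 0.94 in PKO-6) and *Ppard* lower there (-0.48 in rho0, -0.49 in PKO-1 and -0.71 in PKO-6). *Pparg* was called higher in rho0 and lower in PKO-6 (0.57 in rho0, -0.36 in PKO-1 and -0.59 in PKO-6), and *Acacb*, which makes malonyl-CoA, the inhibitor of carnitine palmitoyltransferase 1, higher in PKO-1 (0.53 in rho0, 0.84 in PKO-1 and 0.11 in PKO-6).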

How the data were processed

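RNA of TM6, rho0, PKO-1 and PKO-6 MEFs (3 libraries each) was extracted by the authors with TriZol or RNeasy, depleted of ribosomal RNA and sequenced from both ends. The authors aligned the reads with RSEM 1.2.25 and bowtie2 to RefSeq transcripts of mm10 and deposited estimated counts, not normalized, per transcript and per gene. The deposited transcript files also hold TPM, scaled by the authors to transcript length and a fixed total per library, and the share of each transcript in its gene as a percentage, which the authors' RSEM run gave. Here TPM was summed per gene, and transcript shares were computed from TPM. Transcripts made from mtDNA have 0 entries in the files and were not analysed here.

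Gene counts were rounded to whole numbers (12.5% had decimals) and tested with edgeR 4.0.16 (R 4.3.3). Genes were kept by filterByExpr at a minimum count of 10, libraries were scaled by TMM, and the quasi-likelihood test was run in 1 fit of 4 lines, with Benjamini-Hochberg adjustment over 14026 genes. Normalized counts are counts scaled by TMM library size to the mean library. The thresholds for a call were those of the study, 0.01 for the adjusted p and 0.5 for the size of the log2 fold change. DESeq2 1.42.0 was an alternative. The test was checked on simulated counts. Depth of 47164832 to 67991336 counts per library makes counting error small for these genes. Values per library are given for genes called in at least 2 comparisons with TM6 or between the clones, and for the highest and lowest of each arm in a comparison with TM6; of neighbouring lists, the 2 highest and 2 lowest called genes are named, among those that reach 100 normalized counts on average. Members and lists were chosen with earlier results of these data known. Promoters are from RefSeq (GRCm38.p6), and 28 of 31 windows begin at the start given in the files. Alternatives were another scaling, tool, filter, threshold, grouping and replicate block, thinning, chromosome medians, the removal of *Rn45s*, and each library left out in turn. Results of 3 genes of the neighbouring lists are not reported here.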

Additional observations from a re-analysis of the deposited data

Results flagged for a closer look

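Between the clones PKO-1 and PKO-6, which carry the same excision in *Pnpt1*, 6 of the 35 genes differed in their change from TM6 by a direct test in edgeR. The log2 fold change of PKO-1 against PKO-6 was 0.79 for *Hadhb*, 0.72 for *Cpt1a*, 0.62 for *Mdh1*, 0.56 for *Hadha*, 0.52 for *Acadm* and 0.52 for *Ogdh*. In each case all 3 PKO-1 libraries were above all 3 PKO-6 libraries. Groups of 3 libraries are too small for the test of single outlying libraries, which was not run.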

How the results depend on the processing

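Counts of called genes are given in the order rho0, PKO-1 and PKO-6 against TM6, PKO-1 against PKO-6, and PKO-1 and PKO-6 against rho0. In the fit as reported they were 2, 3, 2, 2, 3 and 0 for TCA genes higher, 7, 3, 7, 0, 1 and 2 for TCA genes lower, 1, 1, 1, 4, 5 and 2 for FAO genes higher and 6, 1, 5, 0, 1 and 0 for FAO genes lower. With an absolute log2 fold change above 1 they were 1, 0, 0, 0, 0 and 0 for TCA genes higher, 0, 1, 3, 0, 0 and 0 for TCA genes lower, 0, 0, 1, 0, 2 and 0 for FAO genes higher and 2, 0, 1, 0, 0 and 0 for FAO genes lower. With no fold change threshold they were 4, 4, 3, 10, 7 and 0 for TCA genes higher, 11, 7, 10, 1, 3 and 5 for TCA genes lower, 2, 2, 2, 7, 8 and 4 for FAO genes higher and 9, 3, 8, 0, 2 and 1 for FAO genes lower. With chromosome medians taken off they were 1, 1, 1, 1, 1 and 0 for TCA genes higher, 5, 2, 8, 0, 0 and 3 for TCA genes lower, 1, 1, 1, 4, 2 and 1 for FAO genes higher and 6, 1, 6, 0, 0 and 0 for FAO genes lower, and *Idh3g* in rho0 went from -0.63 to 0.12 and *Dlst* in PKO-1 from 0.54 to -0.016, which follows from the medians of chromosomes X and 12. With the clones pooled as 1 group, which leaves out the comparison between clones, they were 2, 2, 2, 0 and 0 for TCA genes higher, 5, 5, 5, 1 and 1 for TCA genes lower, 1, 1, 1, 3 and 3 for FAO genes higher and 4, 1, 1, 0 and 0 for FAO genes lower. The medians of the TCA arm were then -0.25 against TM6 and 0.014 against rho0, those of the FAO arm -0.10 and 0.18, so the sign of the TCA median turned against that of PKO-1 against TM6 and of PKO-6 against rho0. With chromosome medians taken off, the TCA median of PKO-1 against TM6 was -0.051 and the FAO median of PKO-6 against TM6 -0.40.

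Leaving out each library in turn gave 1 to 3 TCA genes higher in PKO-1 and 1 to 2 in PKO-6 against TM6, the low value in both without TM6 replicate 1, and 1 to 3 higher in PKO-1 than in PKO-6, the low value without PKO-1 replicate 2 or PKO-6 replicate 3. It gave 0 to 1 FAO genes lower in PKO-1 than in rho0, the low value without rho0 replicate 1 or PKO-1 replicate 3. The TCA median ranged from -0.43 to -0.27 in rho0 against TM6 and from -0.22 to -0.11 in PKO-6 against rho0. Without *Rn45s* in the TPM scale, the summed TPM of the TCA arm was 1974, 1627, 1815, 1524 and that of the FAO arm 758, 617, 701, 599 in TM6, rho0, PKO-1 and PKO-6. This setting rescales all genes of a library alike, so it cannot change the ratio of the arms and is no check of it.

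The labels number the replicates alike in each line without saying that a number marks a shared batch. Deviations from the line means correlated between libraries of the same number from -0.39 to 0.25 (median 0.12). Between libraries of other numbers the range was -0.42 to 0.49 (median -0.047), which spans the former although its median was lower. Of 12 libraries, 5 correlated best with their own number. The numbers were not taken to pair the libraries, and a replicate block was fitted as an alternative. With the number as a replicate block, 7 TCA and 6 FAO genes were called lower in rho0 against TM6, 3 and 1 in PKO-1 and 7 and 5 in PKO-6, as without it, and the block moved none of the other counts by over 1.5 times. DESeq2, other size factors, no filter on low counts, the fit on the compared lines alone, an adjusted p below 0.05, the fit without *Rn45s* and thinned counts also kept every count within 1.5 times of the reported one. Depth was not what limited these genes, the lowest of which had a mean of 649 normalized counts in a line, while each derived line is 1 clone with 3 libraries.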
